A study of Mus musculus with 6 samples.

Results

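The 7 mouse genes described here encode the machinery that fixes the ends of meiotic chromosomes to the nuclear envelope: Majin, Terb1, Terb2, Sun1, Sun2, Spdya and Cdk2. They were chosen by name, for their known role in telomere attachment, and with earlier results of these data known. All 7 were among the 55353 genes listed in each library, had a mean of at least 1 TPM and could be tested. TPM measures transcript abundance, scaled to transcript length and to a fixed total per library. The libraries were made from whole testes of mice at postnatal day 14. The mutant group (n = 3) carried the Rnu11 cKO genotype, a conditional deletion of the gene for U11 snRNA, and the control group (n = 3) was labelled only as control. Neither the Cre driver nor the control alleles nor the strain is named in the sources used here. Each library is a bulk sample of all testis cells, so germ cells and somatic cells were measured together.

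In the prophase of meiosis, each telomere is tethered to the inner nuclear membrane by a complex of TERB1, TERB2 and the membrane protein MAJIN, which takes over the telomere end from shelterin. SUN-domain proteins cross the inner membrane, bind KASH-domain proteins of the outer membrane and so connect the telomere to cytoplasmic dynein, which moves the chromosomes while homologues find each other. CDK2 with its activator Speedy A, the product of Spdya, also sits at telomeres, and mouse spermatocytes that lack either protein fail in telomere attachment and arrest. U11 snRNA belongs to the minor spliceosome, where it recognises the 5′ splice site of U12-type introns.

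Rnu11 itself checked the labels. It stood at 196, 393 and 203 TPM in the 3 mutant testes, against 614, 576 and 550.3 TPM in the 3 control testes. All mutant values were below all control values (log2 difference -1.21, SE 0.26), although limma's adjusted p over all genes was 0.29. Summed marker levels separated the groups for some cell types and overlapped for others. The summed level of 35 leptotene and zygotene genes, with the telomere genes left out, was 798, 744 and 936 TPM in mutants, against 1214, 1013 and 1280 TPM in controls. The sum of 20 Sertoli cell genes ran from 3113 to 4070 TPM in mutants and from 2268 to 2669 TPM in controls, and that of 12 Leydig cell genes from 396 to 585 TPM in mutants and from 240 to 400.5 TPM in controls, so the Sertoli sums did not overlap and the Leydig sums did. In mutants, 8 of 12 undifferentiated spermatogonial, 5 of 7 myoid, 8 of 9 macrophage and 6 of 7 endothelial genes tested were higher, 11 of 12 differentiating spermatogonial genes and 12 of 15 pachytene genes were lower, and limma called 0 in each of these lists. Of all genes tested, 33.6% were lower in mutants. Nuclear protein-coding genes held 29.3%, 31.0% and 26.6% of TPM in mutants, and 25.4%, 27.4% and 26.0% in controls. The single gene Rn7s2 held 26.9% to 30.5% of TPM over the 6 libraries. Scaling to protein-coding genes turned the undifferentiated spermatogonial genes to 5 higher and 7 lower. Under that scaling 5 of 7 myoid, 8 of 9 macrophage and 5 of 7 endothelial genes were higher. No gene of the marker lists was at 0 in all libraries. Control replicate 2 stood apart from the other controls: pachytene genes summed to 201, 205 and 226 TPM in mutants, and to 199 TPM in that control, where control replicates 1 and 3 had 300.1 and 302 TPM. Some results that rest on it are given with and without it, and the others only with it.

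Because TPM is per length, levels can be set side by side between genes. In mutants, mean TPM ran in the order Cdk2, Sun2, Sun1, Terb1, Spdya, Majin and Terb2. In that order Sun2 and Sun1, Terb1 and Spdya, and Majin and Terb2 were neighbours whose ranges over the 3 libraries overlapped. In controls the order was Cdk2, Sun1, Sun2, Spdya, Terb1, Majin and Terb2, and only Spdya and Terb1 overlapped. The widely expressed genes Cdk2, Sun1 and Sun2 thus stood above the 4 genes known for a meiotic role in both groups.

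**Figure D1:**
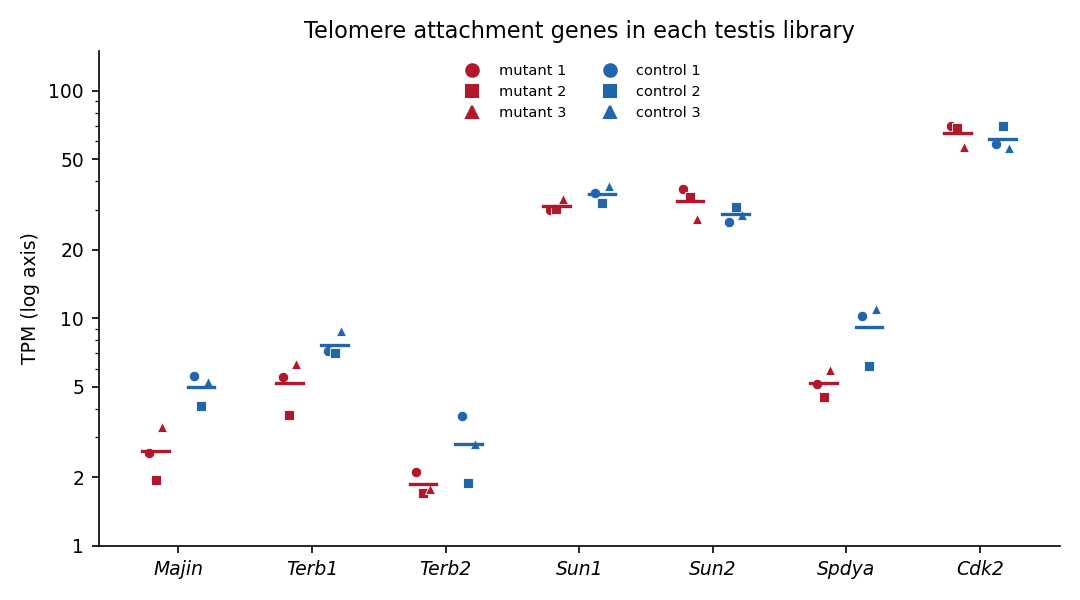
TPM on a log axis for each gene, with mutant testes in red to the left of control testes in blue; marker shapes are replicate numbers and bars are group means. All 3 mutants lie below all 3 controls for Majin, Terb1 and Spdya, and the groups overlap for Terb2, Sun1, Sun2 and Cdk2.

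Transcripts of the telomere tether had lower means in mutant testes, by amounts that did not pass the test over all genes. Majin encodes the transmembrane subunit that anchors the complex in the inner membrane. It lies on the plus strand at chr19:6184388-6224225 (GRCm38). Majin was at 2.56, 1.95 and 3.33 TPM in mutants, against 5.59, 4.12 and 5.23 TPM in controls. Every mutant was below every control, and the mean was 1.91-fold lower (2.61 ± 0.69 TPM in mutants and 4.98 ± 0.77 TPM in controls, SD, n = 3 each). On the log2(TPM + 1) scale the difference was -0.74 (SE 0.17, 95% interval -1.15 to -0.33), with an unadjusted limma p of 0.0039 and an adjusted p of 0.29.

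Terb1 encodes the subunit that binds the shelterin protein TRF1 and recruits cohesin to telomeres. It lies on the minus strand at chr8:104446719-104509910. Terb1 was at 5.54, 3.76 and 6.31 TPM in mutants, against 7.16, 7.06 and 8.76 TPM in controls. The groups again did not overlap, and the mean was 1.47-fold lower in mutants (log2 difference -0.50, SE 0.18, adjusted p 0.29 by limma). Without mutant replicate 2, the lowest, the difference was -0.32 (adjusted p 0.62). Terb2, which bridges TERB1 and MAJIN, lies on the plus strand at chr2:122186272-122206397. Terb2 was at 2.11, 1.70 and 1.78 TPM in mutants, against 3.70, 1.88 and 2.79 TPM in controls. Here the groups overlapped, because control replicate 2 lay within the mutant range, and the difference of -0.38 (SE 0.19, 95% interval -0.84 to 0.08) had an adjusted p of 0.35. Without control replicate 2 the log2 difference was -0.56 for Terb2 and -0.85 for Majin. Without control replicate 1 it was -0.21 for Terb2 and -0.66 for Majin.

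Summed over the complex, Majin, Terb1 and Terb2 together gave 10.2, 7.40 and 11.4 TPM in mutants, against 16.5, 13.1 and 16.8 TPM in controls. The highest mutant was below the lowest control. In a bulk sample, fewer spermatocytes and less of these transcripts per spermatocyte cannot be told apart.

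Majin has 2 coding isoforms in GENCODE M21. Majin-202, with 256 codons, holds 5 coding exons that Majin-201, with 124 codons, lacks. The longest of these exons, 126 nt on the plus strand at chr19:6212128-6212253 (GRCm38), is shown because it and its 4 neighbours tell the isoforms apart; nothing is marked in capitals.
Majin exon: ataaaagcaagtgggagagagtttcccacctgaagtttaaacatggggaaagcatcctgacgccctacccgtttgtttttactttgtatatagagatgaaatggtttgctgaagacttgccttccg
Majin-202 was at 0.67, 0.93 and 0.62 TPM in mutants, against 2.61, 1.24 and 1.76 TPM in controls. Majin-201 was at 1.89, 1.02 and 2.71 TPM in mutants, against 2.99, 2.87 and 3.47 TPM in controls. Both isoforms were below all controls in every mutant (log2 differences -0.70 and -0.56, adjusted p 0.43 and 0.44 by limma over 44197 isoforms). The share of Majin-202 in Majin overlapped between the groups, at 26.1%, 47.7% and 18.5% in mutants and 46.6%, 30.2% and 33.6% in controls.

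For Terb1, most of the signal was assigned to Terb1-204, which is annotated as a processed transcript with no coding sequence. It held 59.4% ± 8.21 of Terb1 TPM in mutants and 58.4% ± 3.07 in controls (SD, n = 3 each). Terb1-204 shares most of its annotated introns with the coding isoform Terb1-201, so how precisely the signal was split between them is unknown. The coding isoform Terb1-201 was at 1.20, 1.28 and 1.97 TPM in mutants, against 2.03, 2.27 and 2.37 TPM in controls, and Terb1-204 was at 3.64, 1.88 and 3.93 TPM in mutants, against 3.95, 4.16 and 5.35 TPM in controls. Both were below all controls, with log2 differences of -0.39 and -0.43 that did not pass the test. The coding isoform Terb2-201 showed the same order, at 1.34, 1.38 and 1.47 TPM in mutants, against 2.54, 1.51 and 1.96 TPM in controls (log2 difference -0.31, adjusted p 0.48), although Terb2 as a gene overlapped.

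Spdya was below all controls in every mutant, while its kinase partner Cdk2 overlapped between the groups; the difference between these 2 genes was not tested. Spdya lies on the plus strand at chr17:71552061-71589533 and Cdk2 on the minus strand at chr10:128697939-128705031. Their promoters are shown as those of this activator and its kinase. Each is the 250 bases before the start, written 5′ to 3′ along the gene's strand, from RefSeq on GRCm38.p6 (Spdya chr17:71551811-71552060, plus strand; Cdk2 chr10:128705052-128705301, minus strand). Capitals mark the letters of a MYB motif (TAACNG), a GC box (GGGCGG), the motif CCAAT or an E-box (CAGCTG), on either strand.
Spdya: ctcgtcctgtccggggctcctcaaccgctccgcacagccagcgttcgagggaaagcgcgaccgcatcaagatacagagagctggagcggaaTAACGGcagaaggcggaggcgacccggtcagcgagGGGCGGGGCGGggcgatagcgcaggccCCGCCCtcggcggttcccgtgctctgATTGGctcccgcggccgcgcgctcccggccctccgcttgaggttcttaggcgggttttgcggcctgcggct
Cdk2: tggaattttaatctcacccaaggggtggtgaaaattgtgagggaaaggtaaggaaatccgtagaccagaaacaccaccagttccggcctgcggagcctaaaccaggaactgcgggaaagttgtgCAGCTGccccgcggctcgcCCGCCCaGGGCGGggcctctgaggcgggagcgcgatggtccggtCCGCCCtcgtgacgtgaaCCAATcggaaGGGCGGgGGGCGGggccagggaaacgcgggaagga
Promoter sequences were matched for 5 of the 7 genes, all but Majin and Terb2, as 6 sequences, with 2 for Sun1. GGGCGG was present in a promoter of all 5, where 32.7% of 32851 promoters of this length hold it on either strand, and CCAAT in Cdk2, Spdya, Sun1 and Sun2, where 33.8% hold it. TAACNG was found for Spdya and for Sun1 (19.8% of promoters), and CAGCTG for Cdk2 and Terb1 (13% of promoters). In Sun1 the TAACNG match lay only in the sequence at chr5:139214908-139215157. That sequence lies within annotated introns of several Sun1 isoforms and ends where those introns end. In Spdya and in Sun2 some copies of GGGCGG overlapped one another. Of the other motifs searched, TGACGTCA (1.55% of promoters), CACGTG (6.02%), TTTGGCGC (0.417%) and GGCGGGAA (1.86%) were in none of the 5.

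Spdya was at 5.12, 4.52 and 5.90 TPM in mutants, against 10.2, 6.18 and 11.0 TPM in controls. All mutants were below all controls, with control replicate 2 close above the mutants. The mean was 1.76-fold lower (5.18 ± 0.69 TPM in mutants and 9.13 ± 2.59 TPM in controls, SD, n = 3 each), with a log2 difference of -0.68 (SE 0.21, 95% interval -1.17 to -0.19), an unadjusted limma p of 0.013 and an adjusted p of 0.29. Without control replicate 2 the difference was -0.91 with an adjusted p of 0.090. Without control replicate 3 it was -0.54 with an adjusted limma p of 0.61. These were the extremes of the difference with single libraries left out. Its main isoform, Spdya-204, was at 3.82, 3.46 and 4.64 TPM in mutants, against 7.63, 4.68 and 7.14 TPM in controls, which did not overlap (log2 difference -0.57, adjusted limma p 0.43). Spdya-202 overlapped, at 1.01, 1.06 and 0.94 TPM in mutants, against 1.71, 1.03 and 2.40 TPM in controls (-0.41, adjusted p 0.48).

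Cdk2, a kinase that also acts in the cell cycle of many testis cells, was at 70.1, 68.6 and 56.6 TPM in mutants, against 58.5, 70.0 and 56.2 TPM in controls. The groups overlapped widely, and the difference of 0.08 (SE 0.13, 95% interval -0.22 to 0.38) had an adjusted limma p of 0.76; its sign was turned by median-ratio scaling (-0.03) and by scaling to protein-coding genes (-0.06). The level of Spdya as a percentage of that of Cdk2 was 7.30, 6.59 and 10.4 in mutants, against 17.4, 8.82 and 19.6 in controls. Mutant replicate 3 and control replicate 2 overlapped in this ratio, so the groups did not separate.

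Within Cdk2, whose total overlapped between the groups, a coding isoform was lower in every mutant than in any control. Cdk2-201, with 298 codons, and Cdk2-202, with 346 codons, are its coding isoforms. They differ by exon 6 of Cdk2-202, 144 nt or 48 codons on the minus strand at chr10:128699976-128700119 (GRCm38), which no other Cdk2 isoform in GENCODE M21 holds. It is shown because it defines the isoform that was lower in mutants; nothing is marked in capitals.
Cdk2 exon 6: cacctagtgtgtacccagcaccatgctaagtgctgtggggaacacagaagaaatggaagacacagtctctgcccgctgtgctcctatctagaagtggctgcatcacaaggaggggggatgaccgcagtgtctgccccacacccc
Cdk2-202 was at 10.3, 9.32 and 9.90 TPM in mutants, against 13.5, 13.1 and 15.9 TPM in controls, with every mutant below every control (log2 difference -0.48, SE 0.11, unadjusted limma p 0.0041, adjusted p 0.43). Cdk2-201 was at 34.5, 34.9 and 27.6 TPM in mutants, against 23.4, 32.4 and 19.1 TPM in controls, which overlapped (log2 difference 0.38, adjusted p 0.49). Of the sum of both coding isoforms, Cdk2-202 made up 23.0%, 21.1% and 26.4% in mutants, against 36.6%, 28.8% and 45.5% in controls. All 3 mutants were below all 3 controls, control replicate 2 again being the nearest. How often pairs of isoforms separate in this way over all genes was not counted. A fit of each isoform against the rest of its gene over 46280 isoform shares gave -0.74 for Cdk2-202 (log2 of the odds, SE 0.26, unadjusted limma p 0.029, adjusted p 0.88). A difference in the mix of Cdk2 isoforms was therefore not called.

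**Figure D2:**
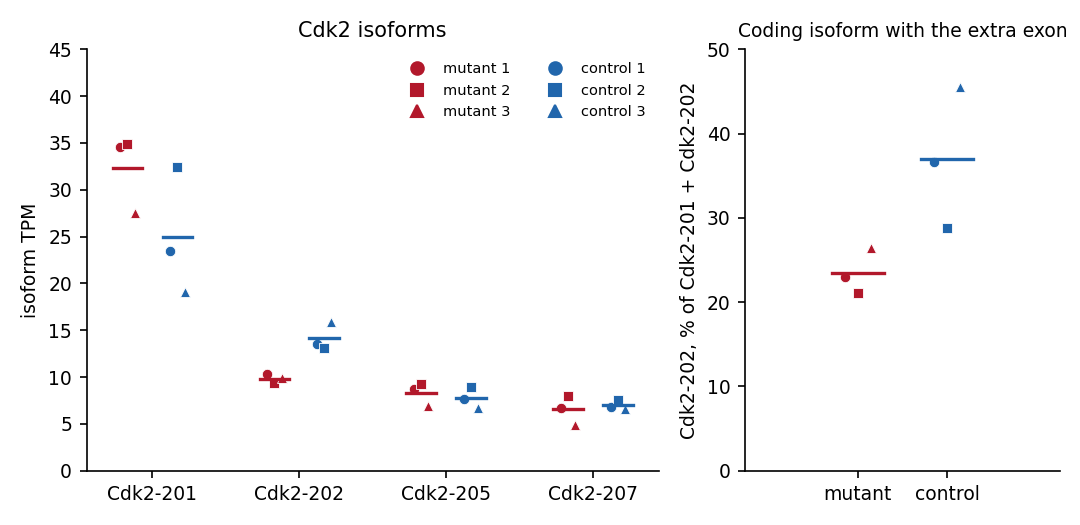
Left, TPM of the 4 most abundant Cdk2 isoforms; right, Cdk2-202 as a percentage of Cdk2-201 plus Cdk2-202, the isoforms that differ by the 144-nt exon. Mutants are red and left of controls in blue, marker shapes are replicate numbers and bars are group means; the 3 mutants lie between 21.1% and 26.4%, below the 3 controls at 28.8% to 45.5%.

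The SUN-domain genes overlapped between the groups. Sun1, whose product is the main SUN protein of meiotic telomeres, lies on the plus strand at chr5:139200637-139249840. Sun1 was at 30.0, 30.3 and 33.3 TPM in mutants, against 35.4, 32.1 and 38.1 TPM in controls. Mutant replicate 3 lay above control replicate 2, and the difference of -0.17 (SE 0.10, 95% interval -0.40 to 0.07) had an adjusted limma p of 0.40. Sun2, a SUN protein with partly overlapping roles, lies on the minus strand at chr15:79724070-79742536. Sun2 was at 36.8, 34.1 and 27.3 TPM in mutants, against 26.6, 30.8 and 28.4 TPM in controls (difference 0.18, SE 0.13, 95% interval -0.12 to 0.49, adjusted p 0.48). The ratio of Sun2 to Sun1 was 1.23, 1.13 and 0.82 in mutants, against 0.75, 0.96 and 0.74 in controls, with mutant replicate 3 inside the control range.

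Among Sun1 isoforms, Sun1-201 and Sun1-202 were below all controls in every mutant. Sun1-201 was at 9.44, 7.45 and 9.21 TPM in mutants, against 11.0, 10.3 and 10.6 TPM in controls (log2 difference -0.27), and Sun1-202 at 3.39, 4.32 and 3.80 TPM in mutants, against 4.84, 4.68 and 6.55 TPM in controls (-0.39). Sun1-201 holds a coding exon of 192 nt that Sun1-202 lacks, and neither difference passed the test (adjusted p 0.46 and 0.44). The coding isoforms Sun2-201 and Sun2-203 differ at the start of 1 exon of 80 nt, on the minus strand at chr15:79735846-79735925 (GRCm38). It is shown with the 6 bases that are in Sun2-201 and not in Sun2-203 in capitals.
Sun2 exon: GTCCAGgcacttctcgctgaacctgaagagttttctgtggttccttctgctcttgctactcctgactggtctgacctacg
Sun2-201 was at 13.9, 14.1 and 8.38 TPM in mutants, against 8.71, 8.06 and 6.30 TPM in controls, where mutant replicate 3 overlapped control replicate 1 (log2 difference 0.57, SE 0.22, adjusted p 0.43). Sun2-203 was at 9.56, 8.34 and 7.75 TPM in mutants, against 8.75, 9.03 and 8.64 TPM in controls (-0.04). Of the sum of these 2 isoforms, Sun2-201 made up 59.2%, 62.8% and 51.9% in mutants, against 49.9%, 47.1% and 42.2% in controls, so all mutants were above all controls. How often such isoform pairs separate over all genes was not counted. The share of Sun2-201 in the whole gene overlapped and was not called (log2 of the odds 0.64, adjusted p 0.88).

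The 7 genes have 49 annotated isoforms in the files. Of these, 31 had a mean of at least 1 TPM, 18 were under it, and 2 of these, Sun1-210 and Sun1-215, were listed at 0 in every library. None of the 31 was called by limma, against 0.0136% of all isoforms tested, and 7 had an unadjusted p under 0.05, against 11.2% of all isoforms. In 9 of the 31 all mutants were below all controls (5.17% of all isoforms), and in 0 all mutants were above (11.6%). Of 27 isoform shares tested, 0 were called (0.013% of all shares) and 1, Cdk2-202, had an unadjusted p under 0.05 (5.6%). Every mutant was above every control in the shares of Cdk2-201 and Sun1-205, and below in those of Cdk2-202, Sun2-203 and Sun2-206. How many of all isoform shares separate in this way was not counted.

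Retained-intron isoforms are annotated for Cdk2, Sun1 and Sun2. Summed, they made up 25.2% ± 1.30 of Cdk2 TPM in mutants and 25.2% ± 0.87 in controls, 20.3% ± 1.91 of Sun1 in mutants and 18.8% ± 2.14 in controls, and 19.8% ± 2.99 of Sun2 in mutants and 18.6% ± 3.58 in controls (SD, n = 3 each). The groups overlapped in all 3 genes. Intron sequence could be read from transcripts that span an intron for 11 of the 124 introns of the 7 genes. All 11 began with GT and ended in AG, and 0 came within 1 mismatch of the U12-type 5′ splice site, the nearest having 2. The other introns were not read here.

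Read together, 5 of the 7 genes were lower in mutants and 2 were higher, where 33.6% of the 17959 genes tested were lower. Of the 17959 genes, 8910 were lower under median-ratio scaling and 9761 under scaling to protein-coding genes. Cdk2 was also lower under both of these scalings (-0.03 and -0.06), and the other members kept their signs. With TPM as deposited, the median log2 difference of the 7 was -0.38, against 0.09 over all genes tested. The 7 were chosen with earlier results of these data known, so they are described beside all genes and not tested as a set. None was called at an adjusted limma p of 0.05, against 0.0278% of all genes (Gm22042, Gm22300, Gm25556, Gm44349 and Gm7432, named after their values were seen). Majin, Terb1 and Spdya had an unadjusted p under 0.05, a property of 16.1% of all genes in either direction and of 3.98% as a lower level in mutants. The same 3 genes were below all controls in every mutant, against 5.77% of all genes, and 0 of the 7 were above all controls, against 14.5%. Without control replicate 2, 5 of the 7 were below all controls, against 12.3% of all genes, and 0 were above all controls, against 29.8%. This was the largest number below with any single library left out, the range being 3 to 5. Of all genes tested, 1.78% had a more negative difference than Majin, 2.06% than Spdya, 3.60% than Terb1 and 5.49% than Terb2. With 3 libraries against 3, an exact permutation test of 1 gene cannot give a p under 0.1.

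The authors' deposited table holds 2 log2 fold changes of mutant over control. The one headed as confident was -0.97 for Majin, -0.84 for Spdya, -0.57 for Terb2, -0.46 for Terb1, -0.18 for Sun1, 0.14 for Sun2 and 0.01 for Cdk2. The one headed as a single run, in the authors' deposited table, was -0.93 for Majin, -0.82 for Spdya, -0.58 for Terb2, -0.56 for Terb1, -0.17 for Sun1, 0.20 for Sun2 and 0.08 for Cdk2. These came from the same libraries, and their signs were those of the limma differences.

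**Figure D3:**
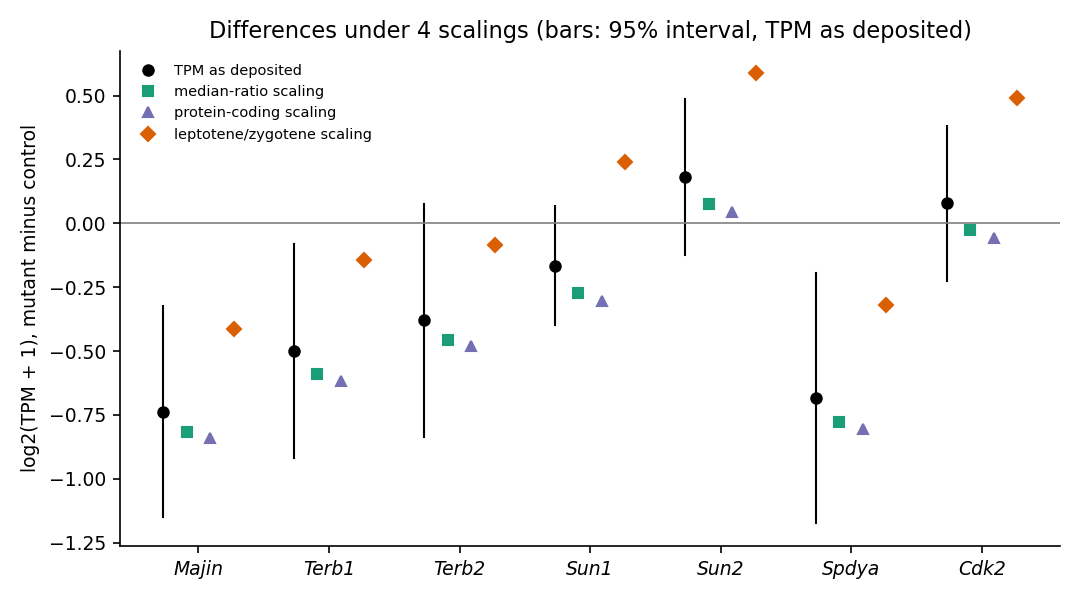
Difference in log2(TPM + 1), mutant minus control, for each gene under 4 scalings of the libraries, with the 95% limma interval for TPM as deposited. Majin, Terb1, Terb2 and Spdya stay below 0 under all 4, while Sun1 turns positive (0.24) when libraries are scaled to leptotene and zygotene genes and Cdk2 turns negative under median-ratio (-0.03) and protein-coding (-0.06) scaling.

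Other genes of early meiotic prophase also had lower values in mutants. Of the 35 leptotene and zygotene genes tested, 33 were lower in mutants and 2 higher (median difference -0.42) and limma called 0 (24 had an unadjusted p under 0.05, all lower). After each library was scaled to the leptotene and zygotene genes, the difference was -0.41 for Majin, -0.32 for Spdya, -0.14 for Terb1 and -0.09 for Terb2. It was 0.24 for Sun1, 0.59 for Sun2 and 0.49 for Cdk2, beside a shift of the median of all genes to 0.45. None of the 7 was called under this scaling. Of the 20 Sertoli cell genes, 18 were higher in mutants (median 0.47, 0 called), and of 11 tested Leydig cell genes all 11 were higher (median 0.59, 0 called). The part of the cell mixture in the differences of the telomere genes was not tested.

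**Figure D4:**
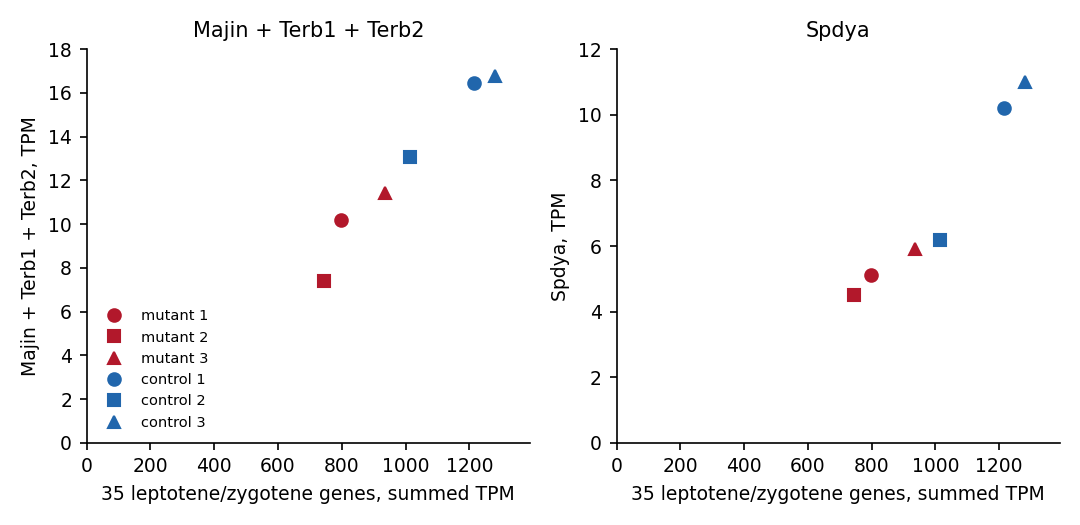
Summed TPM of Majin, Terb1 and Terb2 (left) and TPM of Spdya (right) against the summed TPM of 35 leptotene and zygotene genes, 1 point per library. The 3 mutant testes (red) lie lowest on both axes, the control testes (blue) highest, and control replicate 2 (blue square) lies next to the mutants.

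Genes with the most similar profiles over the 6 libraries were sought among 9322 protein-coding genes of at least 5 TPM, by the root mean square distance between centred log2(TPM + 1) profiles. Nearest to the mean profile of Majin, Terb1 and Terb2 were Ddx4 (0.045), the germ cell RNA helicase, then Tedc1 (0.057), Prss50 (0.061), Sycp2 (0.065), a component of the chromosome axis, and 4930503L19Rik (0.072). All 5 were closer to that mean than its own members, which lay at 0.11 for Majin, 0.13 for Terb1 and 0.17 for Terb2. Those 5 were picked as the nearest of 9322 genes, and Majin and Terb2 are below the search limit of 5 TPM. The comparison therefore does not show whether Majin, Terb1 and Terb2 vary together. Ddx4 averaged 35.9 TPM in mutants and 51.7 TPM in controls, and Sycp2 averaged 51.8 TPM in mutants and 80.9 TPM in controls. The nearest gene was Rfx2 for Spdya (0.032), Arfgap3 for Sun1 (0.021), Brd1 for Sun2 (0.027) and Sil1 for Cdk2 (0.023).

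The genes that work beside the telomere tether were mixed in direction. Of the KASH and SUN partners, 6 of 8 could be tested; 4 were higher and 2 were lower in mutants, with a median of 0.37 and 0 called by limma. Ccdc155, which encodes KASH5, the meiotic link between SUN1 and dynein, was at 8.11, 8.43 and 10.3 TPM in mutants, against 14.8, 9.54 and 17.1 TPM in controls (log2 difference -0.54, adjusted p 0.30). Its groups overlapped through control replicate 2. Of the nesprin genes, Syne2, Syne3 and Syne4 ran the other way, with all mutants above all controls, while Syne1 overlapped between the groups. All mutants were above all controls in 3 of the 6 tested genes of this list, against 14.5% of all genes tested. Syne2 averaged 81.7 ± 12.8 TPM in mutants and 62.5 ± 1.88 TPM in controls, Syne3 13.6 ± 1.71 TPM in mutants and 10.2 ± 0.29 TPM in controls, and Syne4 4.01 ± 0.69 TPM in mutants and 2.32 ± 0.84 TPM in controls (SD, n = 3 each). Their log2 differences were 0.37, 0.38 and 0.61, each with an adjusted limma p of 0.29. The split of 4 higher and 2 lower was the same under median-ratio and protein-coding scaling.

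Of 14 dynein and dynactin genes, 12 were higher and 2 lower in mutants (median 0.12, against 0.09 over all genes, 0 called), and 6 were higher and 8 lower after scaling to protein-coding genes. All mutants were above all controls in 2 of the 14 genes, against 14.5% of all genes tested. Among these 2 was Dynlrb1, a dynein light chain, at 62.0 ± 9.12 TPM in mutants and 45.8 ± 5.19 TPM in controls (SD, n = 3 each). Of 12 lamina and envelope genes 10 were higher and 2 lower (median 0.10), and of 11 shelterin and telomerase genes 7 were higher and 4 lower (median 0.04), with 0 called in either list. Scaling to protein-coding genes turned both lists, to 5 higher and 7 lower for the lamina and to 3 higher and 8 lower for shelterin and telomerase. The shelterin gene Tinf2 averaged 30.5 ± 2.13 TPM in mutants and 35.2 ± 3.89 TPM in controls, and Tert 2.45 ± 0.055 TPM in mutants and 2.06 ± 0.12 TPM in controls (SD, n = 3 each).

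Of 21 regulators of CDK kinases, 18 could be tested; 8 were higher and 10 lower (median -0.06, 0 called), and 5 were higher and 13 lower after scaling to protein-coding genes. Ccne1, which encodes cyclin E1, a CDK2 partner, was at 4.70, 4.50 and 4.62 TPM in mutants, against 6.28, 7.37 and 6.78 TPM in controls. The groups did not overlap (log2 difference -0.48, SE 0.10), with an adjusted limma p of 0.29. Of the 18 regulators tested, only Ccne1 had all mutants below all controls, against 5.77% of all genes tested. Of 9 tested genes with other links to meiotic telomeres or bouquet formation, 2 were higher and 7 lower (median -0.23, 0 called). Scaling to protein-coding genes gave 1 higher and 8 lower. After leptotene and zygotene scaling, where 16676 of all 17959 genes tested were higher, 7 of these 9 were higher and 2 lower. Among them Mael, a piRNA pathway gene, averaged 64.3 ± 4.95 TPM in mutants and 89.1 ± 7.02 TPM in controls, and Tex12, a component of the synaptonemal complex, 16.6 ± 3.14 TPM in mutants and 22.9 ± 3.07 TPM in controls (SD, n = 3 each).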

How the data were processed

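Stranded, rRNA-depleted total RNA from 3 mutant and 3 control whole testes was sequenced, per the labels' protocols, and the submitters' processing notes name HISAT2 and the build GRCm38. The tool that estimated abundance is not given in the sources used here. Deposited for every library were the authors' TPM of genes and of isoforms, without counts, so depth is unknown and no counting interval is given; 30113 to 34510 genes were above 0 per library. The log2 fold changes quoted as the authors' are from a deposited table of group averages. The design text mentions animals, and a library was counted as 1 animal.

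Genes or isoforms with a mean of at least 1 TPM were tested on log2(TPM + 1) with limma 3.58.1 in R 4.3.3 (eBayes with trend, mutant minus control, two-sided) and Benjamini-Hochberg adjustment over all of them, at a threshold of 0.05. This scale understates the change of low genes. For isoform shares, the log2 ratio of an isoform to all other isoforms of its gene (0.1 TPM added to each) was fitted without trend, for isoforms with 5% to 95% of a gene of at least 1 TPM. The fits were run on simulated data with independent noise for each gene, isoform or share. Such data check the code, and do not cover variation shared between genes or the power for the differences described here. Alternatives were other pseudocounts, filters and scalings, fits without trend, a replicate block and each library left out. The leptotene and zygotene scaling divided each library by the geometric mean of TPM + 1 of those genes. Exons and introns were read from GENCODE M21 (141524 of 142647 isoforms matched) and promoters from RefSeq on GRCm38.p6.

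The 7 genes and all lists were chosen with earlier results of these data known. Named were the 7 genes, their isoforms of at least 1 TPM (the more abundant coding ones and Terb1-204 by value, the rest by counts), up to 4 genes of smallest p per pathway list, and nearest profiles.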

Additional observations from a re-analysis of the deposited data

How the results depend on the processing

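None of the 7 genes, and none of their isoforms or isoform shares given by value, was called under any alternative run; over all of these the smallest adjusted limma p was 0.090, for Spdya without control replicate 2. Majin, Terb1, Terb2 and Spdya kept a negative difference and Sun2 a positive one throughout. Sun1 reversed to 0.24 under leptotene and zygotene scaling, and Cdk2 to -0.028 under median-ratio scaling and -0.059 under protein-coding scaling. With single libraries left out, the differences spanned -0.88 to -0.60 for Majin, -0.63 to -0.32 for Terb1, -0.56 to -0.21 for Terb2, -0.91 to -0.54 for Spdya, -0.23 to -0.11 for Sun1, 0.095 to 0.30 for Sun2 and 0.017 to 0.18 for Cdk2. Leaving out single libraries moved Sun2-203 from -0.12 to 0.018 and the Majin-202 share from -0.91 to 0.013, both positive without mutant replicate 3. The median of the 7 genes was -0.52 with a pseudocount of 0.1, -0.18 with a pseudocount of 5, -0.17 with a filter of 5 TPM (which drops Majin and Terb2), -0.086 under leptotene and zygotene scaling, and -0.55 to -0.21 with single libraries left out. The number of the 7 below all controls was 3 to 5, and above all controls 0 to 1, with single libraries left out, a check added after the data were seen.

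Scaling to protein-coding genes shifted the median of all genes from 0.09 to -0.025. Genes called over the whole table numbered 5, and 8 with a pseudocount of 0.1, 3 with a filter of 5 TPM, median-ratio scaling, protein-coding scaling or no trend, 10 under leptotene and zygotene scaling, and 2 to 8 with single libraries left out. They numbered 0 with a pseudocount of 5 (2837 at an unadjusted limma p under 0.05) and 0 with no filter (3881). Isoforms called numbered 6, then 11 with a pseudocount of 0.1 and 2 to 11 with single libraries left out. Isoform shares called numbered 6, then 15 with limits of 1% to 99%, 3 with a trend and 0 to 7 with single libraries left out. With the replicate block limma called 0 genes (3422 at an unadjusted p under 0.05), 0 isoforms (5756) and 0 shares (2673), and the differences of the 7 genes kept their values. Deviations of same-numbered libraries correlated at -0.07, 0.03 and 0.08, and those of differently numbered libraries at -0.16 to 0.12. With 3 libraries per group these correlations cannot decide whether same-numbered libraries were paired, and the labels do not say. Among 18 isoform levels and 23 shares not given by value, 11 of each changed sign under some alternative and 0 were called. TPM gives no depth, so the precision of the low genes Majin and Terb2 is unknown beyond the spread of 3 libraries.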
